A study of Mus musculus with 12 samples.

Results

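The clustered protocadherins are a family of cadherin-like adhesion genes that lie side by side on the forward strand of mouse chromosome 18 (coordinates in GRCm38) in 3 groups, alpha, beta and gamma. Members were taken from the m6A peak lists of the hippocampus as every row whose listed gene name is that of an alpha, beta or gamma protocadherin. The WT list held 175 such rows in 43 named genes and the *Tyrobp-/-* list 169 rows in 39. Rows with identical coordinates were collapsed, which left 154 distinct peaks of 33583 in WT and 150 of 34902 in *Tyrobp-/-* mice, or 0.459% and 0.43% of the lists. Together the lists name 17744 genes.

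In the alpha and gamma clusters each gene has its own large first exon, the variable exon, which encodes the signal peptide, the extracellular cadherin repeats, the membrane span and the start of the cytoplasmic tail. It is spliced to a few short constant exons that all genes of the cluster share. Beta genes consist of a single coding exon and have no constant exons. A neuron makes a small set of these proteins, which pair on the cell surface with identical proteins of other cells and serve self-recognition of neurites, axon tiling and dendrite arborization. The C-type genes, at the downstream end of the alpha and gamma arrays, are less subject to that selection.

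MeRIP-seq was carried out on hippocampal RNA of 6-month-old male C57BL/6 mice, either WT littermates or *Tyrobp-/-* mice, which carry a TALEN-made deletion in exon 2 of *Tyrobp*, the gene of a signalling adaptor of microglia. The line came from heterozygous founders that were crossed with C57/BL6 mice, and the mutant offspring were inbred. Each genotype had 3 samples that each pooled RNA of 3 mice, and each sample gave a library of RNA precipitated with an m6A antibody (IP) and a library without precipitation (input), 12 libraries in all. The libraries held between 61189368 and 73554506 valid reads. In each group replicate 2 had fewer bases at Q30 than replicates 1 and 3, between 92.18% and 92.4% against 94.96% to 95.59%. The authors called peaks on the 3 replicates of a genotype together, so each peak has 1 fold enrichment of IP over input per genotype, without replicate error, and differences between genotypes were described and not tested. The reads behind a single peak are unknown. *Tyrobp* itself had 0 peaks in either list, so peaks do not check the genotype. In RNA of whole hippocampus, fewer cells of a type and less RNA per cell cannot be told apart.

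Both lists held peaks of neuronal genes (4 of 4 of *Rbfox3*, *Snap25*, *Syt1* and *Map2*), of genes marking the hippocampus (3 of 3 of *Prox1*, *Zbtb20* and *Wfs1*), astrocytes (3 of 3 of *Gfap*, *Slc1a3* and *Aqp4*) and microglia (4 of 4 of *Aif1*, *Cx3cr1*, *Csf1r* and *Tmem119*), and of the oligodendrocyte genes *Mbp* and *Mog*. *Ttr*, which marks choroid plexus, and *Pmch* and *Hcrt*, which mark hypothalamus, had 0 peaks in each genotype. Among the matched peaks of these markers, those at least 2-fold apart were 2 of *Mbp*, higher in *Tyrobp-/-* mice, and 1 each of *Slc1a3* and *Csf1r*, lower in *Tyrobp-/-* mice. Of all matched peaks of the lists, 9.85% were at least 2-fold higher and 5.84% at least 2-fold lower.

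Peaks were placed on the variable exons by position, with the RefSeq gene starts of GRCm38. A window from 500 bases before the start to 3.5 kb after it stood for the first exon of an alpha or gamma gene. For a beta gene it was the RefSeq gene with the 500 bases before it. Of the 154 distinct WT peaks, 133 lay in first exons, 17 on the constant side of a cluster, which begins 5 kb after the start of its most downstream gene, 2 joined a first exon to constant exons and 2 lay elsewhere. The *Tyrobp-/-* peaks divided into 141, 5, 2 and 2. A peak elsewhere lay downstream of *Pcdhb14* in each genotype, 12.7-fold and 10.2-fold enriched. The others lay between the first exons of *Pcdha7* and *Pcdha8* in WT (6.84-fold) and downstream of *Pcdhb22* in *Tyrobp-/-* mice (1.8-fold). The log10 peak-calling FDR, lower for a firmer call, was -12.8 and -10.9 for the *Pcdhb14* peaks. It was -0.56 and -1.16 for the others, which were weak calls.

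The listed name was often not that of the gene whose exon held the peak. Of the 133 WT peaks in first exons, 93 were listed under the gene in which they lay and 40 under another gene of the cluster, against 97 and 44 of 141 in *Tyrobp-/-* mice. *Pcdha3* stood for 18 WT peaks, of which 2 lay in its own exon and the others in those of *Pcdha4* to *Pcdha9*. *Pcdhgb2* stood for 16 WT peaks in 7 genes from *Pcdhgb2* to *Pcdhgb5*, with 3 in its own exon. Among first-exon peaks, *Pcdha11* stood for those of *Pcdha10*, *Pcdha11* and *Pcdhac2* in WT and for those of 5 genes in *Tyrobp-/-* mice. On the first exons of beta genes names and places coincided apart from 1 peak in each genotype, listed as *Pcdhb21*, that lay in *Pcdhb22*.

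**Figure D1:**
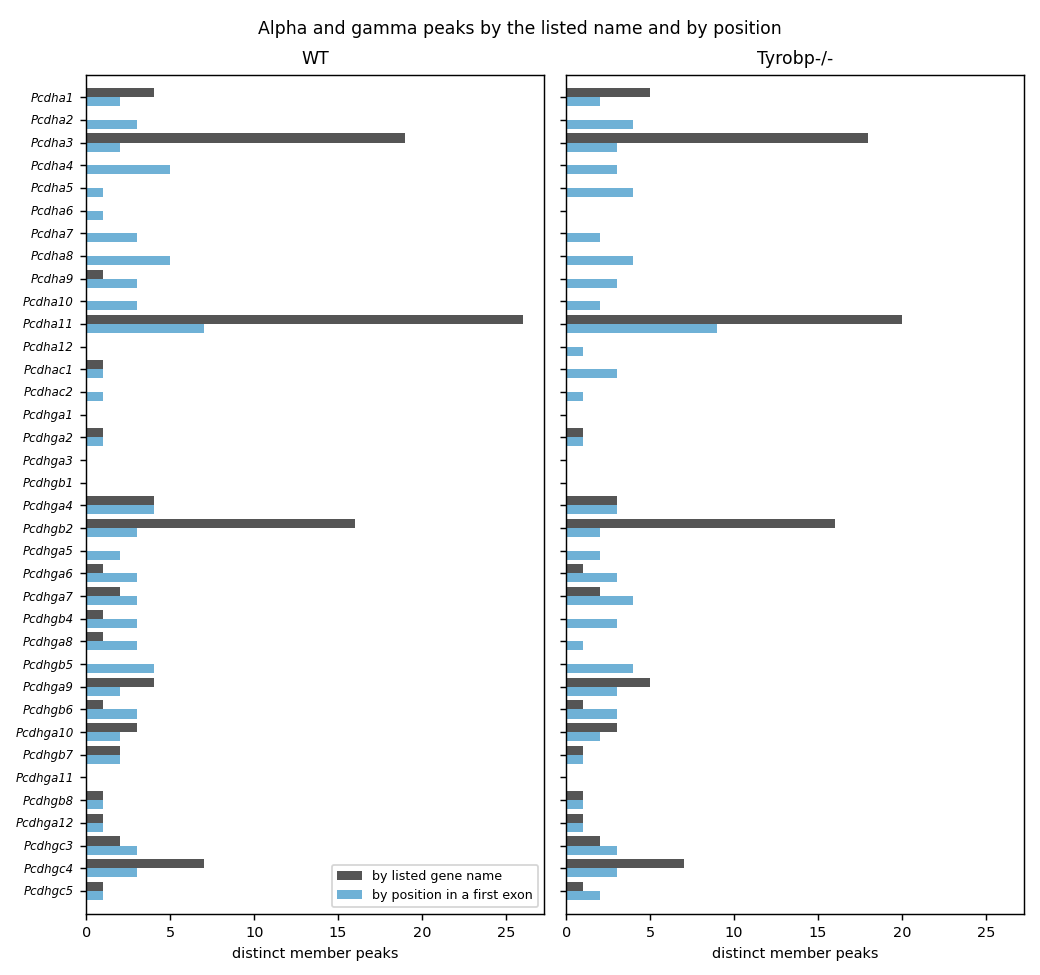
Distinct member peaks of each alpha and gamma gene in WT (left) and *Tyrobp-/-* mice (right), counted by the listed gene name (dark grey bars) and by position in a first exon (light blue bars). *Pcdha3*, *Pcdha11* and *Pcdhgb2* carry many more peaks by name than by place, while several of their neighbours carry none by name. The bars by name include peaks outside first exons.

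By name, 4 genes had a peak in WT mice alone, namely *Pcdha9*, *Pcdhac1*, *Pcdhgb4* and *Pcdhga8*, and 0 genes in *Tyrobp-/-* mice alone. The other 39 of the 43 member names were in both lists, where 14183 of all 17744 gene names were. By place, *Tyrobp-/-* peaks lay in the first exon of each of these 4 genes. The WT row named *Pcdhgb4* has 2 blocks and was placed on *Pcdhga8*, at 3.1-fold. In *Pcdhga8* the highest was 10.1-fold enriched, against 12.2-fold in WT. In *Pcdha9* it was 13.1-fold against 8.43-fold, and that *Tyrobp-/-* peak also takes in constant exons.

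Further peaks lay on exons of the clusters under names outside the family, 36 in WT and 54 in *Tyrobp-/-* mice. In WT 29 were listed under gene models of the reverse strand, such as *Gm26672* and *Gm10544*, and 7 under the forward-strand *Gm37013*. In *Tyrobp-/-* mice these were 38 and 16, the latter including 2 under the forward-strand *Gm42416*. The sources used here do not state that strand entered the peak calling, so RNA of a protocadherin exon and of an antisense model over it cannot be told apart. With these peaks included, each of the 58 alpha, beta and gamma genes of RefSeq, of which *Pcdhgb8* is a pseudogene, had a peak on its first exon in both genotypes. Member peaks alone were placed on 53 genes in each genotype. The first exons of *Pcdhga1*, *Pcdhga3*, *Pcdhgb1* and *Pcdhga11* had peaks of outside names in both genotypes and no member peak placed on them, although 34 bases of a spliced WT peak of *Pcdhga4* reach into *Pcdhgb1*. The same held for *Pcdha12* in WT and for *Pcdha6* in *Tyrobp-/-* mice.

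The peaks were long and lay over much of the exon. The median exonic length of member peaks was 480 bases in each genotype, against 327 and 301 bases over all WT and *Tyrobp-/-* peaks. The non-clustered protocadherins, close relatives outside the clusters, had a similar WT median of 466 bases, so long peaks were not particular to the clusters. Of the member peaks 24.7% and 23.3% covered 1 kb or more, against 10.3% and 9.06% of all peaks. In the 22 beta genes a median of 65.2% of the gene was covered in WT, from 44.8% in *Pcdhb16* to 86.4% in *Pcdhb2*. In *Tyrobp-/-* mice the median was 63.5%, from 36.5% in *Pcdhb13* to 88.4% in *Pcdhb15*.

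Each cluster had a stretch that peaks covered in all of its genes. At 1.65 to 1.7 kb from the gene start, peaks covered all 14 alpha and all 22 beta genes in each genotype. In the gamma cluster all 22 genes were covered in each genotype from 1.95 to 2.05 kb. At 0.5 kb, 13 of 14 alpha genes were covered in each genotype, and 22 of 22 beta genes in WT and 18 in *Tyrobp-/-* mice. Between these places coverage was lower, down to 8 of 14 alpha and 14 of 22 beta genes in WT and to 7 and 15 in *Tyrobp-/-* mice. The gamma genes differed in shape, with 15 of 22 covered at 0.5 kb and 17 at 1 kb in WT, and 13 and 11 in *Tyrobp-/-* mice. At 3 kb from the start peaks covered no alpha or gamma gene, and 1 beta gene in WT and 2 in *Tyrobp-/-* mice.

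**Figure D2:**
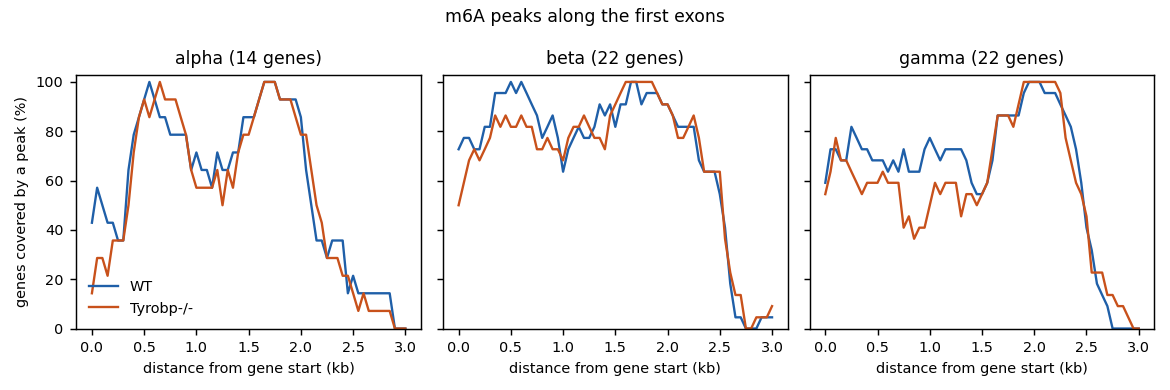
Percent of the genes of each cluster that a peak of any name covered (vertical axis) at each distance from the RefSeq gene start in kb (horizontal axis), in WT (blue) and *Tyrobp-/-* mice (orange). Each cluster has a stretch between 1.65 and 2.05 kb in which all genes are covered, and at 1 kb 17 gamma genes are covered in WT and 11 in *Tyrobp-/-* mice.

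Summed over the 58 first exons, peaks covered 119 kb in WT and 111 kb in *Tyrobp-/-* mice, or 93.6% of the WT value, where all peaks of the lists covered 99.4%. They covered more bases in WT in 40 genes, more in *Tyrobp-/-* mice in 17 and as many in 1 gene. The *Tyrobp-/-* share was lowest in the gamma cluster, at 90.7%, against 93.5% in alpha and 96.3% in beta genes. At 1 kb from the start 17 of 22 gamma genes were covered in WT and 11 in *Tyrobp-/-* mice. The *Tyrobp-/-* regions were also more divided, 160 against 142. The whole *Tyrobp-/-* list likewise held more peaks, 34902 against 33583, of shorter median length, 301 against 327 bases. The split by gene and the regions were not counted over all genes, and no replicate error can be set beside these differences.

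The median fold enrichment of member peaks was 6.5 in WT and 6.94 in *Tyrobp-/-* mice, near the medians of all peaks, 5.55 and 5.72. First exons alone had medians of 7.64 (quartiles 3.64 and 11.1) and 7.15 (quartiles 4.17 and 12.9). Among them, the gamma B genes had the lowest medians in both genotypes, 3.78 over 16 WT peaks and 4.47 over 14 *Tyrobp-/-* peaks. The gamma A genes had 8.79 over 21 and 9.75 over 20 peaks, and the beta genes 8.74 over 54 and 9.03 over 60. The alpha genes had 6.35 over 33 and 5.93 over 35 peaks, and the C-type genes 5.37 over 9 and 5.57 over 12. The quartiles of gamma B, 2.36 and 5.96 in WT, overlapped those of gamma A, 4.26 and 13.3. Peaks of a gene share reads and are not replicates.

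**Figure D3:**
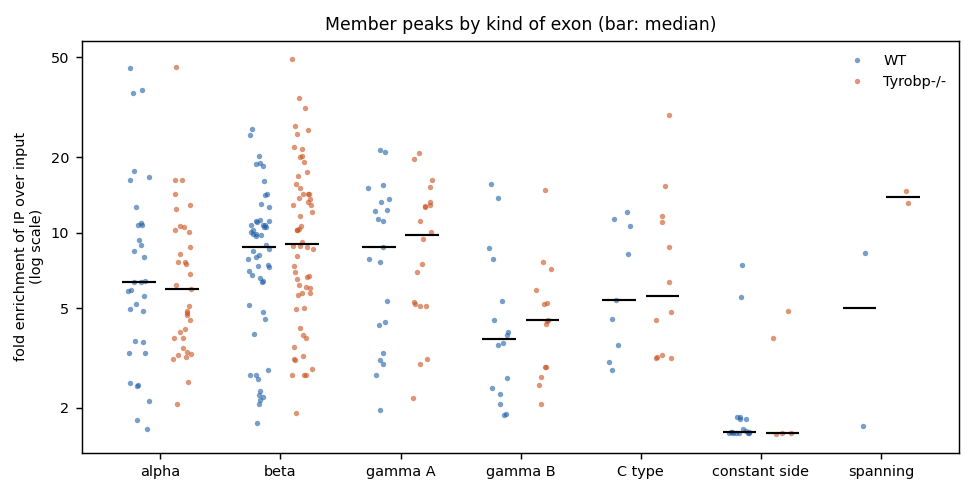
Fold enrichment of IP over input of each distinct member peak (vertical axis, log scale) by the kind of exon in which it lay, in WT (blue) and *Tyrobp-/-* mice (orange), with the median as a black bar. First exons spread from 1.65 to 49.1, and most peaks of the constant side lie near 1.6.

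Among member peaks placed on first exons of alpha genes other than the C types, the highest in WT lay in *Pcdha11* (chr18:37011848-37013164, 45.4-fold) and the lowest in *Pcdha10* (chr18:37006071-37006221, 1.65-fold). In *Tyrobp-/-* mice they were a peak of *Pcdha1* (chr18:36931739-36932307, 45.7-fold) and a peak of *Pcdha9* (chr18:36999014-36999073, 2.07-fold). *Pcdha1* was also high in WT, at 36.1-fold.

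On the first exons of beta genes the WT values ran from 1.74 in *Pcdhb15* (chr18:37474106-37474166) to 25.9 in *Pcdhb4* (chr18:37307875-37310093). In *Tyrobp-/-* mice they ran from 1.91 in *Pcdhb8* (chr18:37357503-37357562) to 49.1 in *Pcdhb16* (chr18:37479247-37480501). The lowest of these beta peaks were short, 61 and 60 bases, and the highest covered 2219 and 1255 bases.

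Among member peaks on first exons of gamma A genes the highest was that of *Pcdhga7* in WT (chr18:37715573-37717162, 21.3-fold) and of *Pcdhga5* in *Tyrobp-/-* mice (chr18:37695695-37696861, 20.8-fold), both listed as *Pcdhgb2*. *Pcdhga6* had the lowest in each, 1.95-fold at chr18:37707488-37707608 and 2.19-fold at chr18:37707668-37707818. Among those of gamma B genes the highest were *Pcdhgb8* in WT (chr18:37761801-37762250, 15.6-fold) and *Pcdhgb5* in *Tyrobp-/-* mice (chr18:37732864-37733223, 14.8-fold), and the lowest *Pcdhgb2* (chr18:37690487-37690547, 1.87-fold) and *Pcdhgb4* (chr18:37721537-37721657, 2.06-fold). Under outside names gamma B genes had higher peaks, 30.3-fold in *Pcdhgb8* in WT, and 19.1-fold in *Pcdhgb8* and 18.1-fold in *Pcdhgb1* in *Tyrobp-/-* mice. First exons of a cluster are alike in sequence, so reads of near-identical stretches may have been placed on the wrong member.

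Of the 5 C-type genes, *Pcdhgc3*, which lies upstream of *Pcdhgc4* and *Pcdhgc5*, had a peak of 8.22-fold in WT and 8.77-fold in *Tyrobp-/-* mice over the start of its exon. A shorter call within that peak was lower, 4.54-fold in WT and 4.48-fold in *Tyrobp-/-* mice. A further peak, listed as *Pcdhga10*, lay 1.9 kb from the *Pcdhgc3* start at the same coordinates in both genotypes (chr18:37808306-37808874), at 2.84-fold and 3.16-fold. The long peak of *Pcdhgc4* was 12.1-fold in WT and 11.0-fold in *Tyrobp-/-* mice. A shorter one 3.02 kb from its start was 10.6-fold over 390 bases in WT and 29.5-fold over 210 bases in *Tyrobp-/-* mice. The log10 peak-calling FDR of the shorter one was -12.0 in WT and -8.4 in *Tyrobp-/-* mice. A second *Tyrobp-/-* piece of 121 bases within the same WT peak was lower, 6.35-fold, with a log10 peak-calling FDR of -2.9. *Pcdhgc5* was covered by a single WT peak of 2782 bases (chr18:37819513-37822294, 11.3-fold), where the *Tyrobp-/-* list had 2 pieces of 4.8-fold and 11.6-fold.

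In the alpha cluster, *Pcdhac1* had a WT member peak at its start (chr18:37090013-37090252, 5.37-fold), which no *Tyrobp-/-* peak overlapped. The *Tyrobp-/-* list had 3 peaks further into the exon under the name *Pcdha11*, of 3.18-fold, 3.15-fold and 15.4-fold, where WT had a peak of 14.2-fold under *Gm10544* that runs on into the constant exons. *Pcdhac2* had member peaks of 3.55-fold in WT and 3.26-fold in *Tyrobp-/-* mice at its start. Its longest peaks were again listed as *Gm10544*, 18.2-fold and 13.2-fold, and also ran on into the constant exons.

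The constant exons were listed many times over. In the gamma cluster 22 rows of each list, all named *Pcdhgc4*, lay at the downstream end of the cluster, where the gamma genes end together. They collapsed to 4 distinct WT peaks of 180 or 181 bases (chr18:37841690-37841873 in all, 1.81-fold to 1.83-fold) and to 3 *Tyrobp-/-* peaks of 90 or 91 bases (chr18:37841780-37841873 in all, 1.57-fold to 1.59-fold). The peaks of each genotype overlap into 1 region. The same stretch of RNA was thus listed many times, and its value is not that of a particular gamma gene.

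In the alpha cluster 11 distinct WT peaks, named *Pcdha11*, lay on the last constant exon (chr18:37185080-37185265 in all) at 1.58-fold to 1.64-fold. No *Tyrobp-/-* member peak lay on that exon alone. There the *Tyrobp-/-* list had 2 member peaks of 4 blocks, which join a first exon to the constant exons, at 14.6-fold from *Pcdha2* and 13.1-fold from *Pcdha9*, and their value is pooled over all blocks. WT had 2 of that kind, 1.69-fold from *Pcdha2* and 8.3-fold from *Pcdha4*. Under the name *Gm10544*, spliced peaks of the constant side were 1.33-fold to 1.42-fold over 7 distinct WT peaks, and 1.82-fold to 2.45-fold over 10 distinct *Tyrobp-/-* peaks. These WT peaks cover 150 or 151 bases and the *Tyrobp-/-* peaks 360 to 450, so the values are not of the same bases. A further 2 member peaks in each genotype, between chr18:37177745 and chr18:37178432, lay on an exon that the authors' annotation gives to another gene model. They were 7.45-fold and 5.53-fold in WT, and 4.88-fold and 3.81-fold in *Tyrobp-/-* mice.

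Most member peaks were found in both genotypes. Of the WT peaks 135 of 154, or 87.7% (exact 95% binomial interval 81.4% to 92.4%), shared at least 1 exonic base with a *Tyrobp-/-* peak, against 79.4% of all WT peaks. Of the *Tyrobp-/-* peaks 139 of 150, or 92.7% (87.3% to 96.3%), overlapped a WT peak, against 77.4% of all. On first exons alone, which leaves out the repeated calls of constant exons, the shares were 86.5% (79.5% to 91.8%) and 92.9% (87.3% to 96.5%). The intervals cover counting error only and treat overlapping peaks as separate. The 19 WT peaks without a partner had a median length of 121 bases and a median of 2.52-fold, against 569 bases and 7.64-fold for those with a partner. The 11 *Tyrobp-/-* peaks without a partner had 120 bases and 2.66-fold. The median member peak was longer than that of all peaks, and the part of length in these shares was not tested. Without a partner were, among others, a WT peak of *Pcdha8* of 61 bases at 10.7-fold and a *Tyrobp-/-* peak of *Pcdha8* at 7.62-fold, the highest of each genotype. Both were weak calls, with a log10 peak-calling FDR of -1.8 in WT and -0.762 in *Tyrobp-/-* mice.

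For each distinct WT peak, the *Tyrobp-/-* peak that shared most exonic bases with it was taken as its partner, and the log2 ratio of the fold enrichments, *Tyrobp-/-* over WT, was computed. The median log2 ratio was 0.20 over the 135 member pairs (quartiles -0.21 and 0.54) and 0.08 over all 26677 pairs. A total of 19 member pairs, or 14.1%, were at least 2-fold higher in *Tyrobp-/-* mice, where 9.85% of all pairs were. A total of 6, or 4.44%, were at least 2-fold lower, where 5.84% of all pairs were. In either direction 15.7% of all pairs were past 2-fold. None of the 17 member pairs of the constant side was, but most of these are near-identical WT peaks, and the 17 have 4 distinct *Tyrobp-/-* partners in all.

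The balance depended on the list from which pairs were drawn. The 135 WT peaks had 105 distinct *Tyrobp-/-* partners, since a peak of either list can meet several of the other. Drawn from the 139 matched *Tyrobp-/-* peaks, 11 were at least 2-fold higher and 26 at least 2-fold lower in *Tyrobp-/-* mice, 7.91% and 18.7%, against 6.59% and 9.34% of all such pairs, and the median log2 ratio was -0.12. Where each peak was the best partner of the other, 9 of 99 pairs were higher and 4 lower, against 6.97% and 6.01% of all, with a median of 0.06. The member peaks thus had no direction in common that held under each pairing.

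The beta genes were the group with most pairs higher in *Tyrobp-/-* mice. From the WT list 12 of 49 pairs (24.5%) were at least 2-fold higher and 0 lower, and with mutual partners 7 of 43 (16.3%) and 0. The 12 include more than 1 pair of *Pcdhb8* and of *Pcdhb22*. They also include pairs of *Pcdhb15*, *Pcdhb1* and *Pcdhb8* that share 0.159%, 14.4% and 19.3% of the union of the 2 peaks. From the *Tyrobp-/-* list the counts were 8 higher and 9 lower of 57. Alpha genes had 4 higher and 3 lower of 28 from the WT list, but 2 higher and 12 lower of 35 from the *Tyrobp-/-* list. Gamma genes had 2 higher and 3 lower of 38, and 1 higher and 5 lower of 39. Of all pairs, 9.85% were higher and 5.84% lower from the WT list. These shares were 6.59% and 9.34% from the *Tyrobp-/-* list, and 6.97% and 6.01% with mutual partners.

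**Figure D4:**
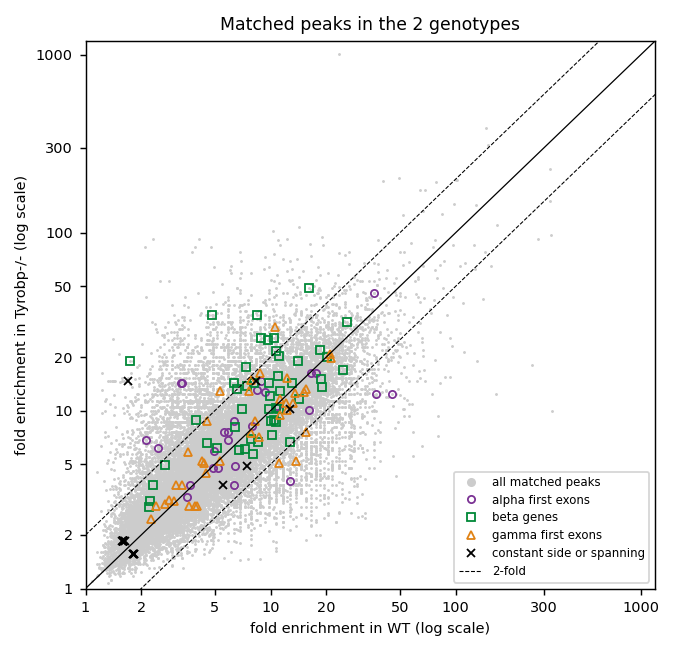
Fold enrichment of matched peaks in WT (horizontal axis, log scale) and *Tyrobp-/-* mice (vertical axis, log scale), for pairs drawn from the WT list. Grey points are all 26677 pairs, coloured symbols are the 135 member pairs, the solid line is equality and the dashed lines 2-fold. Of the member pairs 19 lie above the upper dashed line and 6 below the lower one, and 12 of the 19 are of beta genes.

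The 10 pairs with the largest differences lay in 7 genes. The pair of largest ratio, in *Pcdhb15* (1.74-fold in WT and 19.1-fold in *Tyrobp-/-* mice), shares 1 base and sets 2 neighbouring stretches of the exon beside each other. The same holds for a pair in *Pcdha9* (2.13-fold and 6.83-fold). The 4-block peak that starts in *Pcdha2* was 1.69-fold over 181 bases in WT and 14.6-fold over 1408 bases in *Tyrobp-/-* mice.

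In *Pcdhb8*, 2 WT peaks of 4.84-fold and 8.48-fold stood against 1 *Tyrobp-/-* peak of 34.3-fold (chr18:37355688-37357176), with log2 ratios of 2.83 and 2.02. *Pcdhb16* had 16.1-fold over 1613 bases in WT and 49.1-fold over 1255 bases in *Tyrobp-/-* mice, with 1225 bases shared. The log10 peak-calling FDR of these *Pcdhb8* peaks was -16.1 and -79.9 in WT and -52.4 in *Tyrobp-/-* mice. For *Pcdhb16* it was -40.9 in WT and -32.2 in *Tyrobp-/-* mice. In *Pcdha11* the peaks at the start were 3.32-fold and 3.3-fold in WT and 14.3-fold in *Tyrobp-/-* mice. Their log10 peak-calling FDR was -2.89, -2.3 and -5.85. Another *Tyrobp-/-* call that takes in both of these WT peaks was 10.2-fold. Just upstream the WT list had a peak of 10.7-fold and the *Tyrobp-/-* list one of 10.5-fold. Further in, the 2 overlapping WT peaks of *Pcdha11*, 45.4-fold and 37.1-fold, stood against 12.4-fold in *Tyrobp-/-* mice, so the same exon held differences in both directions. *Pcdha5* had 12.7-fold over 1796 bases in WT and 4-fold over the 1018 bases of its *Tyrobp-/-* partner.

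The pairs past 2-fold matched less closely in extent than the others. The shared bases were a median of 53.8% of the union of the 2 peaks for the 25 pairs past 2-fold, and 67.8% for the 110 pairs within it. Of the 23 member pairs that shared at least 90% of the union, 4 were at least 2-fold higher and 0 lower in *Tyrobp-/-* mice, against 2.95% and 2.72% of all such pairs. These 4, named after their values were seen, were all of beta genes, which held 12 of the 23 pairs. Gamma genes held 9 of the 23 and alpha genes 2. *Pcdhb3* had 9.69-fold in WT and 24.8-fold in *Tyrobp-/-* mice, and *Pcdhb22* 10.5-fold and 25.7-fold. *Pcdhb20* had 7.38-fold and 17.5-fold at identical coordinates, and *Pcdhb6* 3.94-fold and 8.86-fold. The log10 peak-calling FDR of *Pcdhb3* was -121 in WT and -96.3 in *Tyrobp-/-* mice, and of *Pcdhb22* -104 and -94.9. For *Pcdhb20* it was -79.5 and -109, and for *Pcdhb6* -10.8 and -15.8.

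Gene by gene, the highest peak on the first exon, under any name, had a median of 12.4-fold in WT and 13.2-fold in *Tyrobp-/-* mice over the 58 genes. It was higher in *Tyrobp-/-* mice in 27 genes and lower in 31, with a median log2 ratio of -0.04. It was at least 2-fold higher in 7 genes, *Pcdhb2*, *Pcdhb3*, *Pcdhb8*, *Pcdhb16*, *Pcdhb22*, *Pcdhgb1* and *Pcdhgc4*, and at least 2-fold lower in 3, *Pcdha5*, *Pcdha11* and *Pcdhgb4*. For *Pcdhgc4* the *Tyrobp-/-* value, 29.5-fold, is that of a peak of 210 bases that begins 3.02 kb from the gene start. A second *Tyrobp-/-* piece within the same WT peak was 6.35-fold. The long peak of *Pcdhgc4* was 12.1-fold in WT and 11.0-fold in *Tyrobp-/-* mice. Of the 14183 gene names listed in both genotypes, the highest peak was at least 2-fold higher in 8.61% and at least 2-fold lower in 7.22%, counted by name and not by place. For *Pcdhb20* and *Pcdhb6*, other peaks of the exon were the highest in WT, 24.5-fold and 10.1-fold, against 17.5-fold and 8.86-fold in *Tyrobp-/-* mice.

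**Figure D5:**
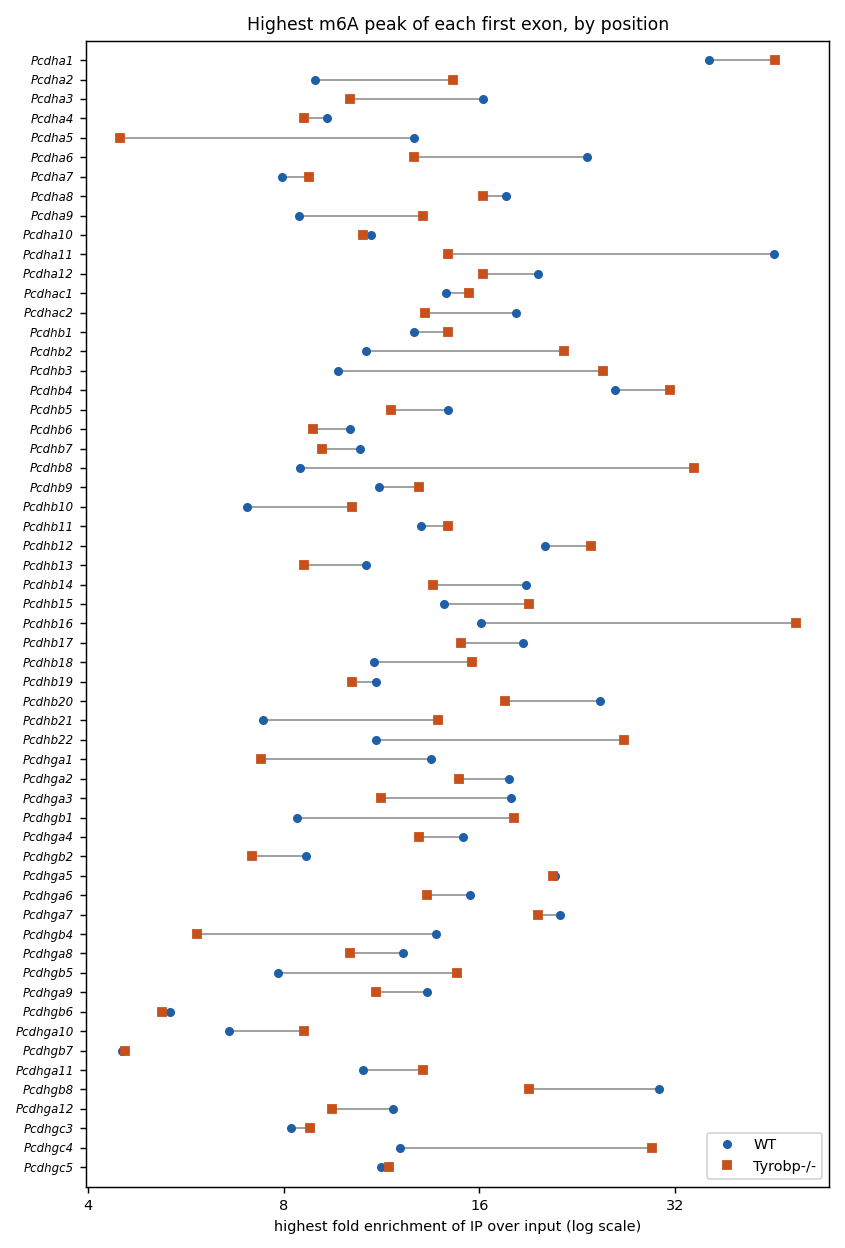
Highest fold enrichment of a peak on the first exon (horizontal axis, log scale) of each of the 58 genes in chromosomal order, in WT (circles) and *Tyrobp-/-* mice (squares), for peaks of any name placed by position. The symbols of 10 genes are at least 2-fold apart, 7 of them with the *Tyrobp-/-* value higher. The *Tyrobp-/-* value of *Pcdhb12*, 23.8-fold, is that of a peak that ends before the RefSeq gene start.

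Some of the genes are named in the study's text for their expression, which was not analysed here. Of these, *Pcdhgb4* had WT peaks of 1.88-fold, 3.57-fold and 13.7-fold and *Tyrobp-/-* peaks of 5.89-fold, 2.06-fold and 5.24-fold. The WT peak of 13.7-fold (chr18:37722286-37722675) was matched to that of 5.24-fold, a log2 ratio of -1.39. *Pcdhga2* had a member peak of 11.3-fold in WT and 9.39-fold in *Tyrobp-/-* mice, over nearly the same bases, and peaks of 17.8-fold and 14.9-fold under *Gm37013*. *Pcdhga9* had 2 WT peaks of 11.1-fold and 13.3-fold, and 3 *Tyrobp-/-* peaks of 5.07-fold, 6.94-fold and 11.1-fold. *Pcdhga8* had 12.2-fold and 10.1-fold over its long peak. *Pcdhgb8* had a peak at its start of 15.6-fold over 450 bases in WT and of 7.62-fold over 121 bases in *Tyrobp-/-* mice, and higher peaks under *Gm26672* of 30.3-fold and 19.1-fold.

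The authors' table of the genotype comparison, of which positions and gene names alone were used, lists 37 member rows of 5640. Before collapsing, member rows were 175 of 33622 in the WT list and 169 of 34935 in the *Tyrobp-/-* list. The comparison holds more rows than the peaks that the paper reports as significantly different, so a listed row is not in itself a call of difference. Of the 37 rows 22, or 59.5%, are the repeated calls at the downstream end of the gamma cluster, which collapse to 4 distinct peaks. The other 15 rows are distinct and lie in the first exons of 12 genes, *Pcdha4*, *Pcdha5*, *Pcdha8*, *Pcdhb1*, *Pcdhb5*, *Pcdhb11*, *Pcdhb12*, *Pcdhb17*, *Pcdhb18*, *Pcdhgb4*, *Pcdhgb6* and *Pcdhgb7*. Of the 15, 8 were listed under the gene in whose exon they lay.

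The non-clustered protocadherins, close relatives that lie outside the clusters, had peaks in 12 of 12 genes in WT and 11 of 12 in *Tyrobp-/-* mice. Their median was 6.34-fold over 56 WT peaks and 5.07-fold over 68 *Tyrobp-/-* peaks. Of their 47 matched pairs, 5 (10.6%) were at least 2-fold higher and 6 at least 2-fold lower in *Tyrobp-/-* mice. Of all pairs 9.85% were higher and 5.84% lower. The median log2 ratio of the 47 pairs was -0.02. *Pcdh8* and *Pcdh10* had the highest peaks, 25.1-fold and 22.1-fold in WT and 29.5-fold and 27.3-fold in *Tyrobp-/-* mice. *Pcdh11x* had 3 peaks of up to 3.19-fold in WT and 0 in *Tyrobp-/-* mice.

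Among 11 genes that act on the promoters of the clusters, which include the insulator protein *Ctcf* and subunits and loaders of cohesin, 9 had a peak in WT and 8 in *Tyrobp-/-* mice. Of their 13 matched pairs, 0 were past 2-fold, where 15.7% of all pairs were, and 13 pairs are few to set beside that share. *Ctcf* had its highest peak at 13.6-fold in WT and 9.04-fold in *Tyrobp-/-* mice. The highest peaks of a gene need not overlap, and those of the cohesin release factor *Wapl* were 18.6-fold and 6.03-fold, of the cohesin subunit *Stag2* 1.91-fold and 5.72-fold, and of *Smchd1* 3.31-fold and 7.62-fold. Of 10 genes of cytoplasmic partners, such as the kinases *Ptk2* and *Fyn* and the WAVE complex genes *Cyfip1*, *Nckap1* and *Wasf1*, all had a peak in each genotype. Of their 14 pairs 1 was past 2-fold, that of *Cyfip1*, at 18.6-fold in WT and 5.72-fold in *Tyrobp-/-* mice. *Nckap1* had its highest peak at 2.59-fold in WT and at 81.0-fold in *Tyrobp-/-* mice, which are not the peaks matched to each other.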

How the data were processed

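m6A immunoprecipitates and inputs of hippocampal RNA (3 samples per genotype, each pooling 3 mice) were sequenced as strand-marked paired-end libraries. Per the study's methods, the authors filtered reads with fastp and aligned them with HISAT2 to GRCm38. Peaks came from exomePeak, run once per genotype on its pooled replicates, and their gene names from ChIPseeker. Versions, and whether peak calling used strand, are not given in the sources used here. The deposited quality table gives counts of valid reads and percent of bases at Q30 per library. The deposited peak lists give, per peak, a fold enrichment (a ratio of IP over input), a p-value and a log10 FDR. The authors' table of the genotype comparison holds their own fold changes and p-values, of which none were used.

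Rows with the same coordinates were collapsed. Genes were placed with the RefSeq annotation of GRCm38.p6. Peaks matched when their exonic blocks shared at least 1 base, and the partner of largest overlap was taken. Matching by span had been planned, but a spliced peak of the alpha cluster spans most of its exons. A difference was counted from 2-fold. With 1 pooled value per peak and genotype there was no test, and no interval except the exact (Clopper-Pearson) 95% interval of a share. Percentages, medians and log2 ratios were computed in Python 3.11.15 with numpy 2.4.6, pandas 2.3.3 and scipy 1.17.1, figures with matplotlib 3.10.9, and the matching was tested on simulated peaks. Genes named are the C-type genes, all constant-exon peaks, the highest and lowest first-exon peak of each type and genotype, the 10 matched pairs of largest log2 ratio, genes named in 1 genotype only and the genes that the study's text names for expression. Markers, non-clustered protocadherins, promoter regulators and cytoplasmic partners formed the other lists, of which 1 marker is not reported here. The members and lists were chosen with earlier results of these data known. Alternatives were other counting of rows, a peak-calling FDR below 1e-05, a fold enrichment of at least 4, other overlaps and pairings, 1.5-fold and centred ratios.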

Additional observations from a re-analysis of the deposited data

Results flagged for a closer look

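Peaks on exons of the protocadherin clusters that the lists name after genes outside the family numbered 36 in WT and 54 in *Tyrobp-/-* mice, and stood outside the count of member peaks. Of the WT peaks 26 lay on first exons, 7 on the constant side and 3 on both, and of the *Tyrobp-/-* peaks 43, 10 and 1. They lay on the first exons of 16 genes in each genotype, and *Gm26672* was the name listed most often, with 12 and 18 peaks. Their fold enrichment ran from 1.33 to 30.3 in WT and from 1.82 to 23.8 in *Tyrobp-/-* mice.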

How the results depend on the processing

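Of 86 values recomputed under alternatives for 31 results, 67 stayed within a set margin of the reported value, 17 moved and 2 passed 2-fold. For counts the margin was wide, a factor of 1.5. Among the 67 were thus the *Tyrobp-/-* genes with a peak, 39 by name and 58 by position under any name. So were the distinct *Tyrobp-/-* peaks, 150 by name and 202 by position. At a fold enrichment of at least 4, WT had 100 distinct peaks. The WT share with a partner was 92.9% by spans, 61.7% by reciprocal overlap of 50% and 95% at an FDR below 1e-05 in both lists, and the *Tyrobp-/-* share was 60.7% by reciprocal overlap. With the highest peak of each named gene alone, median fold enrichment was 11.2 in WT and 14.3 in *Tyrobp-/-* mice. The median log2 ratio was 0.31 by spans, -0.12 from the *Tyrobp-/-* list, 0.06 with mutual partners and -0.04 for the highest peak per gene. Pairs higher in *Tyrobp-/-* mice numbered 32 at 1.5-fold (23.7%, against 19.5% of all pairs), 34 by spans (23.8% against 10.3%), 11 from the *Tyrobp-/-* list and 9 with mutual partners, and pairs lower numbered 10 at 1.5-fold (7.41% against 12.7%) and 26 from the *Tyrobp-/-* list. With member names alone, the log2 ratio of the highest peak was 1.52 for *Pcdhac1* and -1.03 for *Pcdhgb8*. The causes were not tested. The pairings from the *Tyrobp-/-* list, mutual partners and values per gene were chosen after seeing the data. No paired analysis was possible because each peak has 1 value over pooled replicates, and for the same reason no replicate could be left out. Reads per peak are unknown, so the limit that depth sets on a single fold enrichment could not be given. A higher fold enrichment did not always go with a lower peak-calling FDR. Reads of near-identical first exons may have been placed on the wrong gene.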
